A study of Arabidopsis thaliana with 12 samples.

Results

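Transcripts of 10 genes encoding transcription factors of the early wound response were followed in Arabidopsis root tips. The genes were taken by locus ID: WRKY40 (AT1G80840), WRKY18 (AT4G31800), WRKY33 (AT2G38470), WRKY53 (AT4G23810), ERF13 (AT2G44840), ERF4 (AT3G15210), ERF5 (AT5G47230), ERF6 (AT4G17490), STZ (AT1G27730, also called ZAT10) and ZAT12 (AT5G59820). They are 10 of the 32833 genes in the table, and all 10 were among the 19206 genes tested, whose mean over all libraries reached 10 normalized counts. A normalized count is the number of reads on a gene divided by the size factor of its library.

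The study set the short-term cytokinin (CK) response of wild-type Col-0 against that of ago10-1, an insertion mutant of ARGONAUTE10 in the Col-0 background. Seedlings grown on plates until 6 days after germination were sprayed with 1 µM of the synthetic CK 6-benzylaminopurine (BAP) or left untreated (labelled mock). Roots were cut 2 h later a few millimetres above the tip, at a distance given only as a range. These pieces are called root tips here. No spray is described for the mock groups, so effects of BAP and of spraying cannot be told apart in any comparison with mock. BAP below means the spray with BAP. The 4 groups were Col-0 mock, Col-0 BAP, ago10-1 mock and ago10-1 BAP, with 3 libraries each. Root tips of all 4 groups were cut from the seedlings at harvest and frozen at once, the mock groups included. ago10-1 is 1 insertion allele, and how many plants entered a library is not given in the sources used here. For Col-0 mock, 2 columns share 1 heading, so these libraries are called A and B and have no replicate number.

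The first steps after injury in plants include calcium influx and the activation of MAP kinases, and transcripts of a small set of regulators accumulate within minutes. WRKY proteins bind the W box in promoters of defence genes, ethylene response factors (ERFs) bind the GCC box, and C2H2 zinc finger proteins such as STZ and ZAT12 act in abiotic stress responses. The same genes respond to touch, chitin, cold and oxidative stress, and many of their transcripts turn over rapidly.

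The 12 libraries held 19394256 to 34899796 reads on genes. AGO10, the targeted gene, stood at 883 ± 174 normalized counts in Col-0 mock and 167 ± 25.6 in ago10-1 mock (SD, n = 3 each), and at 848 ± 250.5 and 158 ± 23.9 after BAP, so the genotype labels matched the transcript in every library. All 8 root tip markers (PLT1, PLT2, WOX5, SHR, SCR, SMB, BRN1 and FEZ) were detected in each library, with summed levels of 3627 to 4970 normalized counts. The 6 markers of root hairs and differentiated epidermis summed to between 14649 and 36579, and the 6 markers of green shoot tissue to between 68.0 and 939. Of the green markers, LHCB2.1 and RBCS3B were at 0 in at least 1 library of every group.

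Promoter sequences are shown for the 3 genes whose groups separated in the results, WRKY40, ERF13 and STZ, and for WRKY33, which varied mostly between libraries of 1 group. Each is the run of 300 bases before the annotated gene start, from RefSeq (TAIR10.1, whose nuclear coordinates are those of TAIR10), written 5′ to 3′ on the strand of the gene. Capitals mark the W box core TTGAC, the GCC box GCCGCC and the rapid stress response element CGCGTT, each searched on both strands. On the opposite strand the W box core reads GTCAA. The GCC box there reads GGCGGC.
WRKY40 (chr1:30383261-30383560, plus strand): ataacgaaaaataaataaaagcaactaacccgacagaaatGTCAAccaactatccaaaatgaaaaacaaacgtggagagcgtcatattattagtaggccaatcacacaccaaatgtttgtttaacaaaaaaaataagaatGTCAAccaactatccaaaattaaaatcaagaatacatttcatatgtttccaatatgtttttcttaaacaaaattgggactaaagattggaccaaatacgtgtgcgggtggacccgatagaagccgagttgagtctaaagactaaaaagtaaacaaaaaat
ERF13 (chr2:18494915-18495214, plus strand): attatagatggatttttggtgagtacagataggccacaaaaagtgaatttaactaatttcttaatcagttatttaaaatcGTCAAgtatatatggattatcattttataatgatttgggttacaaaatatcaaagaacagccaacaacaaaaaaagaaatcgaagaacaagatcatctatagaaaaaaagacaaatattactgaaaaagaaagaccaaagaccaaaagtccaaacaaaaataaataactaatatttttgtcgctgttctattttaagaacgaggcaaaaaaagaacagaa
STZ (chr1:9649324-9649623, minus strand): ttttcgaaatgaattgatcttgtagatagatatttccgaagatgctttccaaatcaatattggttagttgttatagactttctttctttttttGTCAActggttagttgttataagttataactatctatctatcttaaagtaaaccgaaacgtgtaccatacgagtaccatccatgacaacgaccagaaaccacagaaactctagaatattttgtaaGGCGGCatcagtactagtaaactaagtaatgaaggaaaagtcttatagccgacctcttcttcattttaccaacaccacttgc
WRKY33 (chr2:16107935-16108234, plus strand): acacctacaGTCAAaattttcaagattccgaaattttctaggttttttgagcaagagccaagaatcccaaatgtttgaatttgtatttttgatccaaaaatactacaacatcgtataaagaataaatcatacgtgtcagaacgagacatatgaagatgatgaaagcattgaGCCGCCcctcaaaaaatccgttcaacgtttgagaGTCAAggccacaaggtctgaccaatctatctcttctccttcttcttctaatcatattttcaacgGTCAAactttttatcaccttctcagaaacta

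The W box core was found in 8 of the 10 promoters and in 50.4% of the 27443 promoters of protein-coding genes taken in the same way. More than 1 core stood in 6 of the 10 and in 17.9% of all promoters. WRKY40 held 2 cores, 260 and 160 bases before the gene start, ERF13 held 1 at 220 bases, STZ 1 at 207 bases and WRKY33 3 at 291, 95 and 31 bases. WRKY18 and ERF6 held none of the motifs in this window. The GCC box was present in WRKY33 and STZ only among the 10, against 2.26% of all promoters, and the rapid stress response element in none of the 10, against 3.08%. These matches describe letters in a window and were not tested for binding.

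Per kilobase of annotated exon, the level over the 12 libraries ran from 20.3 ± 20.7 normalized counts for ERF13 to 534 ± 176 for ERF4 (mean ± SD over the 12 libraries, groups included). ERF4, a repressor of the ERF family, was followed by ZAT12 at 438 ± 193 and WRKY33 at 426 ± 143 per kilobase. These means lay within each other's SD, but the SD includes variation that the genes share between libraries. Over the 12 libraries ERF4 was correlated with ZAT12 at 0.87 and with WRKY33 at 0.88 (Pearson, log2 scale). ERF4 had a higher mean per kilobase than both in every group. The difference within libraries was not tested. ERF6 at 195 ± 88.3 and ERF5 at 174 ± 68.3 per kilobase formed the next level, with means within each other's SD. WRKY40 at 97.3 ± 61.2, WRKY18 at 65.0 ± 17.7, WRKY53 at 46.8 ± 15.1 and STZ at 43.0 ± 24.3 per kilobase came below them. WRKY40 exceeded WRKY18 by less than its own SD, WRKY18 exceeded WRKY53 by more than the SD of either, and WRKY53 and STZ lay within each other's SD. As all genes were measured in the same libraries, these SDs describe the spread and do not test differences between genes. The gene with the lowest level, ERF13, exceeded 6.74% of the genes tested per kilobase, and ERF4, with the highest, exceeded 71.5%. All 6 ERF and zinc finger genes are annotated with 1 exon.

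**Figure D1:**
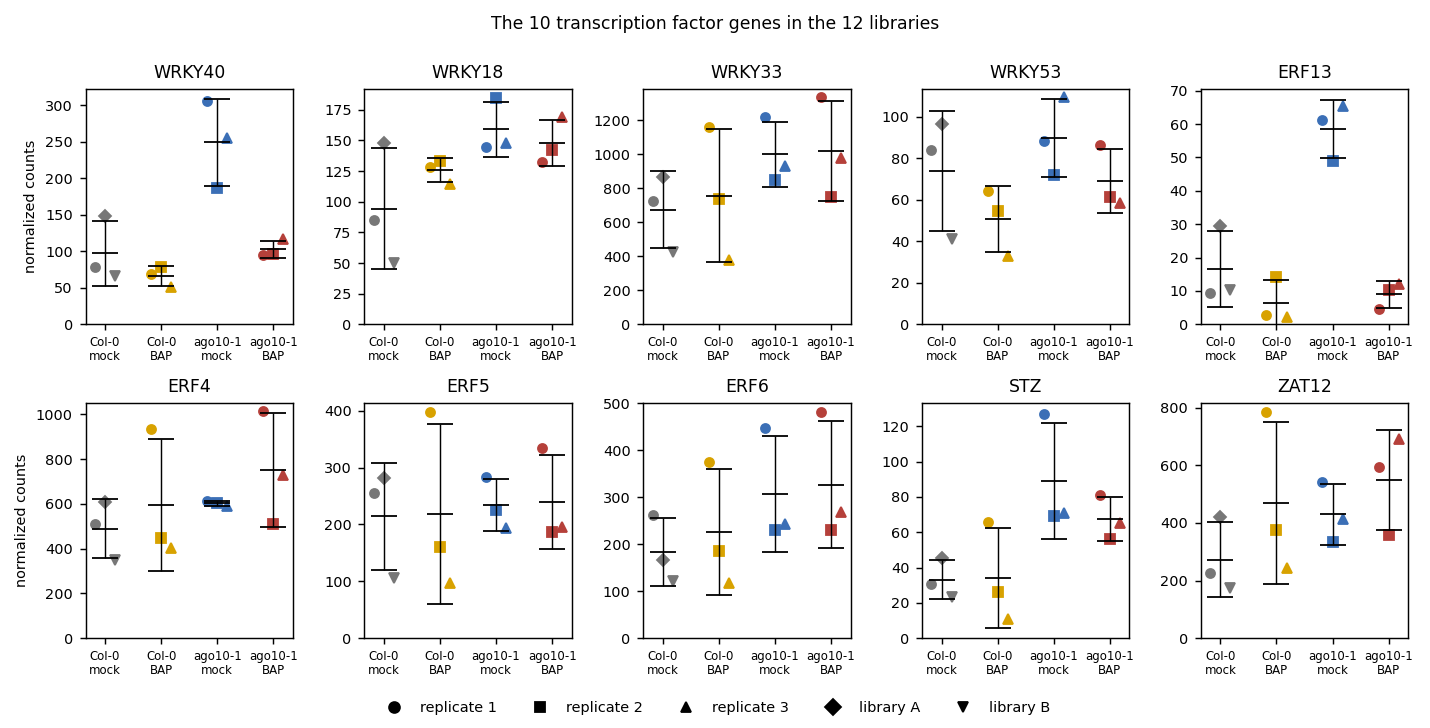
Normalized counts (vertical axes, linear and starting at 0) of the 10 genes in the 4 groups. Points are libraries with the shape giving the replicate number or library letter, and bars are the mean ± SD (n = 3). WRKY40, ERF13 and STZ in ago10-1 mock lie above every Col-0 mock library, and in most other panels the libraries of 1 group spread over the range of the next.

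The first comparison asked whether the genes differed between ago10-1 and Col-0 without BAP. All 10 had a higher fitted level in ago10-1 mock, and 3 of them, WRKY40, ERF13 and STZ, rose at an unadjusted p under 0.01 (limma). At this threshold 0.437% of all genes tested were called in this comparison. That is a smaller share than the threshold of 0.01 itself, as in the other comparisons, and the reason was not tested. The median log2 fold change of the 10 genes was 0.74, beside 0.01 over all genes tested, of which 51.4% were positive. None of the 10 passed an adjusted p of 0.05 in this fit. As these are bulk samples, a difference in the number of cells expressing a gene and one in its RNA per cell cannot be told apart.

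WRKY40, which with the related WRKY18 represses basal defence genes, lies on chromosome 1 (chr1:30383561-30385499). Its normalized counts in Col-0 mock were 78.0, 148 and 65.6 in replicate 1, library A and library B, and in ago10-1 mock 306, 186 and 256 in replicates 1, 2 and 3. The lowest ago10-1 mock library lay above the highest Col-0 mock library, library A. The means were 97.2 ± 44.3 and 249 ± 60.0 (SD, n = 3 each), and the log2 fold change was 1.41 (standard error 0.33, unadjusted p = 0.0029 and adjusted p = 0.999 from limma).

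ERF13 (chr2:18495215-18496327), an ERF of the group that also holds ERF5 and ERF6, was close to the lower limit of these libraries in Col-0. It stood at 9.45, 29.6 and 10.3 normalized counts in Col-0 mock replicate 1, library A and library B, which correspond to 8, 34 and 14 reads. Whether both mates of a read pair were counted is not given in the sources used here, and if they were, fewer fragments than reads stand behind these values. In ago10-1 mock it reached 61.2, 49.0 and 65.5 normalized counts, or 50, 62 and 76 reads. All 3 ago10-1 mock libraries lay above all 3 Col-0 mock libraries, and library A was the highest of the latter. This gave a log2 fold change of 1.95 (standard error 0.47, unadjusted p = 0.0034 and adjusted p = 0.999 from limma), with a ratio of means of 3.56.

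STZ (chr1:9648021-9649323) encodes a zinc finger repressor linked to salt and drought tolerance. Its normalized counts were 30.7, 45.2 and 23.6 in Col-0 mock replicate 1, library A and library B and 127, 69.5 and 70.7 in ago10-1 mock replicates 1 to 3. The ago10-1 replicate 1 library was well above the other ago10-1 libraries, and the groups did not overlap. In the fit the log2 fold change was 1.39 (standard error 0.36, unadjusted p = 0.005 and adjusted p = 0.999 from limma). WRKY40, ERF13 and STZ were the 3 genes of the 10 whose ago10-1 mock libraries all exceeded the Col-0 mock libraries, which 3.88% of all genes tested did.

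The other 7 genes overlapped between the genotypes without BAP. WRKY18 was at 94.4 ± 49.5 normalized counts in Col-0 mock and 159 ± 22.3 in ago10-1 mock (SD, n = 3 each), with a log2 fold change of 0.87 (95% interval 0.02 to 1.73). WRKY33, which drives camalexin synthesis genes in defence against necrotrophic fungi, was at 675 ± 226 and 1000.0 ± 193, with a log2 fold change of 0.61 (0.00 to 1.22). The log2 fold changes of ERF6 and ZAT12 were 0.74 and 0.73, and those of WRKY53, ERF4 and ERF5 lay between 0.23 and 0.34. Of these genes WRKY18 and WRKY33 had an unadjusted p under 0.05.

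These calls rested on few libraries. Without ago10-1 mock replicate 1, none of the 10 passed an unadjusted p of 0.01, with 3 under 0.05 in limma. Without Col-0 mock replicate 1, WRKY40 and ERF13 passed. Without library B 1 gene (WRKY40) passed, without ago10-1 mock replicate 3 1 gene (STZ), and without library A 5 genes, WRKY18 and ZAT12 being added. All 10 fitted differences stayed positive in each of these fits but that without library B, where 8 were. Their median was 0.47 without library B and 0.51 without ago10-1 mock replicate 1, and lay between 0.78 and 0.96 without 1 of the others. With edgeR and with DESeq2 on the recovered reads, WRKY40, ERF13 and STZ passed an unadjusted p of 0.01.

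**Figure D2:**
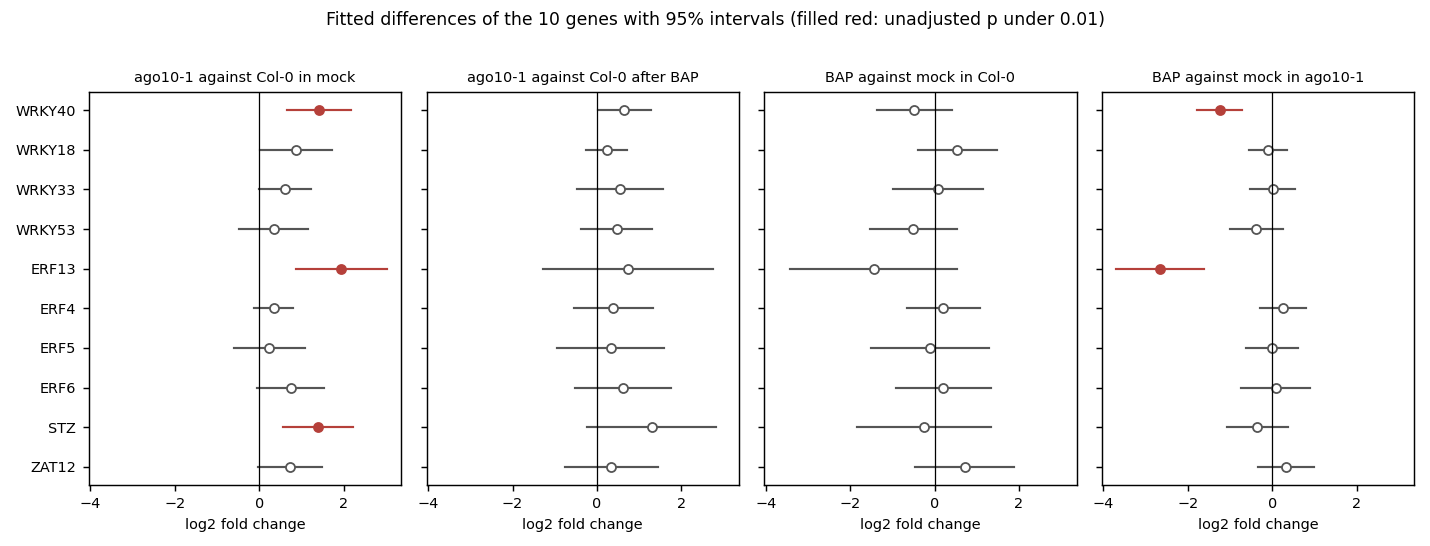
Log2 fold changes (horizontal axis) of the 10 genes in 4 comparisons, with 95% intervals from limma. Filled red points have an unadjusted p under 0.01, which WRKY40, ERF13 and STZ reach in ago10-1 against Col-0 in mock and WRKY40 and ERF13 reach for BAP in ago10-1. The intervals of the BAP response in Col-0 all span 0.

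The second comparison set ago10-1 BAP against ago10-1 mock. WRKY40 and ERF13 fell, and they were the only 2 of the 10 genes past an unadjusted p of 0.01, where 0.568% of all genes tested were called. This comparison uses the same ago10-1 mock libraries as the first, in which both genes were high, so the 2 sets of values are not independent. The other 8 genes had log2 fold changes from -0.38 to 0.32. The median of the 10 was -0.05, beside 0.01 over all genes tested, and its sign rested on single libraries. It fell to -0.25 when ago10-1 BAP replicate 1 was left out. The value was 0.04 without ago10-1 mock replicate 1, and leaving out ago10-1 BAP replicate 2 gave 0.03.

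ERF13 stood at 61.2, 49.0 and 65.5 normalized counts in ago10-1 mock replicates 1 to 3 and at 4.50, 10.4 and 12.2 in ago10-1 BAP replicates 1 to 3. The ago10-1 BAP libraries held 4, 10 and 16 reads and lay within the range of the Col-0 libraries. The log2 fold change was -2.66 (standard error 0.45, 95% interval -3.70 to -1.61, unadjusted p = 0.00046 and adjusted p = 0.908 from limma), and it ranked the 4th of all genes tested by p. The mean was reduced from 58.5 ± 8.57 to 9.03 ± 4.02 normalized counts (SD, n = 3 each). The ratio of BAP to mock in libraries of the same number was 0.0735, 0.213 and 0.186.

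WRKY40 declined from 306, 186 and 256 normalized counts in ago10-1 mock to 95.5, 97.0 and 116 in ago10-1 BAP, in replicates 1 to 3. The groups did not overlap, and the ratio within a replicate number was 0.312, 0.520 and 0.455. The log2 fold change was -1.25 (standard error 0.23, 95% interval -1.78 to -0.72, unadjusted p = 0.00075 and adjusted p = 0.908 from limma), and it ranked the 7th of all genes tested by p. WRKY40 and ERF13 were the 2 genes of the 10 whose BAP libraries all lay below the mock libraries, as did 4.59% of all genes tested. With the replicate number as a block, the adjusted p of both lay at 0.06, and with DESeq2 on the recovered reads the adjusted p was 0.011 for WRKY40 and 0.0023 for ERF13.

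The remaining 8 genes did not pass the threshold for BAP in ago10-1, and their 95% intervals all include 0. WRKY18 had a log2 fold change of -0.11 (95% interval -0.55 to 0.34), and the value of WRKY33 was 0.01 (-0.53 to 0.55). ERF5, a regulator of chitin and osmotic stress responses, was at -0.0045 (-0.63 to 0.62), and ERF6, which is phosphorylated by MAP kinases, at 0.08 (-0.74 to 0.90). ERF4 was at 0.26 (-0.28 to 0.81), STZ at -0.35 (-1.08 to 0.37) and ZAT12 at 0.32 (-0.33 to 0.98). WRKY53, a regulator of leaf senescence, was at -0.38 (-1.01 to 0.25). The summed root hair markers lay between 14649 and 21809 normalized counts in ago10-1 mock and between 19022 and 36579 in ago10-1 BAP, overlapping ranges whose part in these values was not tested.

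**Figure D3:**
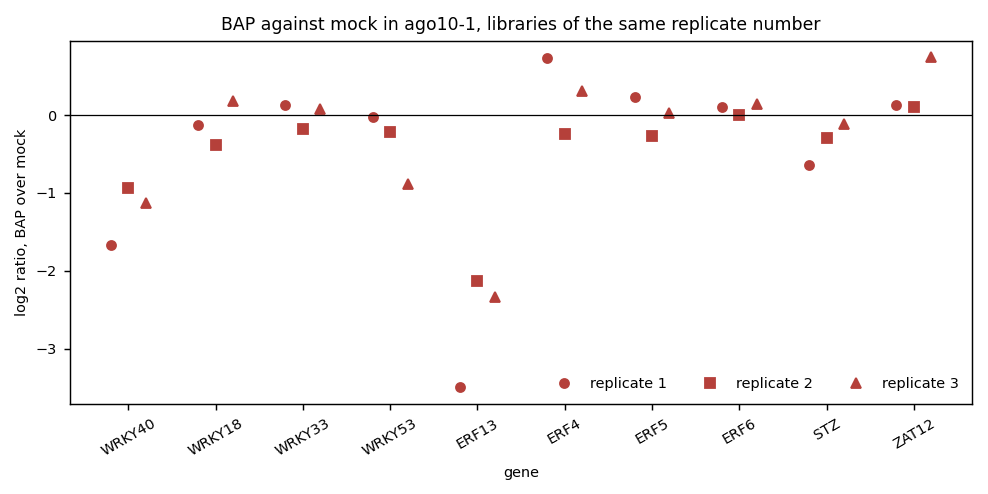
Log2 ratio of BAP over mock (vertical axis) for the 10 genes in ago10-1 libraries of the same replicate number, with a pseudocount of 1. WRKY40 and ERF13 lie below 0 in all 3 replicate numbers, as do WRKY53 and STZ, which lie nearer to 0. ERF6 and ZAT12 lie above 0 in all 3, although ERF6 in replicate 2 is at only 0.0018. WRKY18, WRKY33, ERF4 and ERF5 have values on both sides of 0.

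The BAP response in Col-0 formed the third comparison. None of the 10 genes was called with limma at an unadjusted p of 0.01 or 0.05, and none with edgeR or DESeq2, where limma called 0.151% of all genes tested. The fitted values were positive for 5 genes and negative for 5, with a median of -0.01, and 7 were positive with edgeR and with DESeq2. Leaving out single libraries moved this number to between 2 (without library B or Col-0 BAP replicate 1) and 7 (without Col-0 BAP replicate 3), and the median to between -0.41 (without Col-0 BAP replicate 1) and 0.40 (without Col-0 BAP replicate 3). ERF13 stood at 9.45, 29.6 and 10.3 normalized counts in mock and 2.74, 14.3 and 2.12 in BAP replicates 1 to 3, where replicates 1 and 3 held 2 reads each. Its log2 fold change of -1.45 had a wide 95% interval of -3.43 to 0.53. WRKY40 was at 78.0, 148 and 65.6 in mock and 68.4, 78.6 and 51.0 in BAP, with a log2 fold change of -0.48 (-1.37 to 0.41). For each of the 10 genes the Col-0 groups with and without BAP overlapped.

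The zinc finger gene ZAT12, a regulator of light and oxidative stress responses, had the largest positive value in Col-0. It stood at 225, 419 and 173 normalized counts in Col-0 mock replicate 1, library A and library B and at 784, 376 and 244 in Col-0 BAP replicates 1 to 3. The BAP replicate 1 library was the highest of all 12 and the other BAP libraries fell within the mock range. Its log2 fold change was 0.71 with a 95% interval of -0.46 to 1.89. In ago10-1 it was 0.32.

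Whether the BAP responses of the 10 genes differed between the genotypes was tested by the interaction over all 12 libraries. None of the 10 was called with limma at an unadjusted p of 0.01 or of 0.05, and none with edgeR or DESeq2 at 0.05, with 0.0208% of all genes tested called at 0.01 with limma. The interaction value was -1.21 for ERF13 (95% interval -3.29 to 0.87) and -0.76 for WRKY40 (-1.73 to 0.21), and a negative value means a lower BAP-to-mock ratio in ago10-1 than in Col-0. Both intervals include 0, so a difference between the responses was not detectable with 3 libraries a group. The median of the 10 was -0.11, beside 0.01 over all genes tested, with 1 library again deciding its sign. It ran from -0.61 without Col-0 BAP replicate 3, where none of the 10 values was positive, to 0.31 without Col-0 BAP replicate 1, where 7 were. It was also positive without library B (0.13), ago10-1 mock replicate 1 (0.07) or ago10-1 BAP replicate 2 (0.06).

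After BAP the comparison of the genotypes had the same sign for all 10 genes but no call. Every fitted value was positive in ago10-1 against Col-0, with a median of 0.50 beside 0.01 over all genes tested. None of the 10 was called with limma at an unadjusted p of 0.01, where 0.13% of all genes tested were called, nor with edgeR or DESeq2. WRKY40 alone had a p under 0.05 with limma and with DESeq2, and none had one with edgeR. The Col-0 BAP and ago10-1 BAP libraries also enter the comparisons with mock, so these values are not independent of those above.

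WRKY40 stood at 68.4, 78.6 and 51.0 normalized counts in Col-0 BAP replicates 1 to 3 and at 95.5, 97.0 and 116 in ago10-1 BAP replicates 1 to 3. It was the only gene of the 10 whose ago10-1 BAP libraries all lay above the Col-0 BAP libraries, which 1.97% of all genes tested did. The log2 fold change was 0.65 (95% interval 0.01 to 1.28, unadjusted p = 0.046 and adjusted p = 1.000 from limma). STZ stood at 65.7, 26.2 and 10.6 in Col-0 BAP and 80.9, 56.3 and 65.4 in ago10-1 BAP, where Col-0 replicate 1 lay between the ago10-1 libraries. Its log2 fold change of 1.29 had a 95% interval of -0.23 to 2.82, and without Col-0 BAP replicate 1 it was 1.93 with an unadjusted p of 0.0052 from limma. Without Col-0 BAP replicate 3, 8 of the 10 fitted values were positive and the median was 0.18. The median was 0.30 without ago10-1 BAP replicate 1 and 0.78 without Col-0 BAP replicate 1.

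Most of the genes varied together between libraries of a group. In Col-0 mock, library A held the highest value of 9 of the 10 genes and library B the lowest of 9, where 30.1% of all genes tested were highest in library A and 35.9% lowest in library B. In Col-0 BAP, replicate 1 was the highest library for 7 genes and replicate 3 the lowest for all 10, against 44.7% and 36.9% of all genes tested. Replicate 1 was the highest ago10-1 mock library for 7 of the 10 and the highest ago10-1 BAP library for 6, against 37.6% and 37.0% of all genes tested. In Col-0 BAP the median ratio of replicate 1 to the mean of the other libraries was 2.14 over the 10 genes, against 1.36 in ago10-1 mock and 1.39 in ago10-1 BAP. In Col-0 mock it was 0.979, and replicate 1 was the highest library for 1 of the 10.

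The summed markers of root hairs and green shoot tissue also differed between these libraries. The summed green shoot markers stood at 939, 148 and 68.0 normalized counts in Col-0 BAP replicates 1 to 3. The root hair markers stood at 34738, 22877 and 17622 there. Both sums were highest in replicate 1 and lowest in replicate 3. PRP3 alone held 18468, 10949 and 7422 of the root hair sum, and COBL9, EXPA7 and EXPA18 followed the same order. The root hair markers RHD6 (580, 896 and 899) and RSL4 (1246, 1303 and 1302) were instead lowest in replicate 1. RCA alone held 564, 92.9 and 25.5 of the green shoot sum and LHCA1 112, 50.0 and 42.5. LHCB1.1, LHCB2.1, RBCS1A and RBCS3B were at 0 in replicate 3. In Col-0 mock replicate 1, library A and library B the green shoot markers stood at 288, 319 and 79.6 and the root hair markers at 16217, 29771 and 18709. Library A was the highest for both, library B the lowest for the green shoot markers and replicate 1 the lowest for the root hair markers. RCA alone held 239, 242 and 50.1 of these green shoot sums. Replicate 1 also held the highest green shoot sum in ago10-1 mock (270.4) and in ago10-1 BAP (656), while the root hair sum was highest in replicate 3 of each (21809 and 36579). The part of these markers in the variation of the 10 genes was not tested.

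WRKY33 shows the pattern at higher counts. It stood at 1161, 737 and 376 normalized counts in Col-0 BAP replicates 1 to 3 and at 1336, 751 and 979 in ago10-1 BAP replicates 1 to 3. Col-0 BAP replicate 1 exceeded 2 of the 3 ago10-1 BAP libraries, and Col-0 BAP replicate 3 was the lowest of the 12. ERF5 behaved alike, with 397, 159.6 and 97.7 in Col-0 BAP and 335, 187 and 196 in ago10-1 BAP. Its coefficient of variation was 72.4% in Col-0 BAP and 19.6% in ago10-1 mock. ERF4 was at 613, 603 and 591 in ago10-1 mock replicates 1 to 3 and at 1016, 509 and 732 in ago10-1 BAP, a wider spread.

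**Figure D4:**
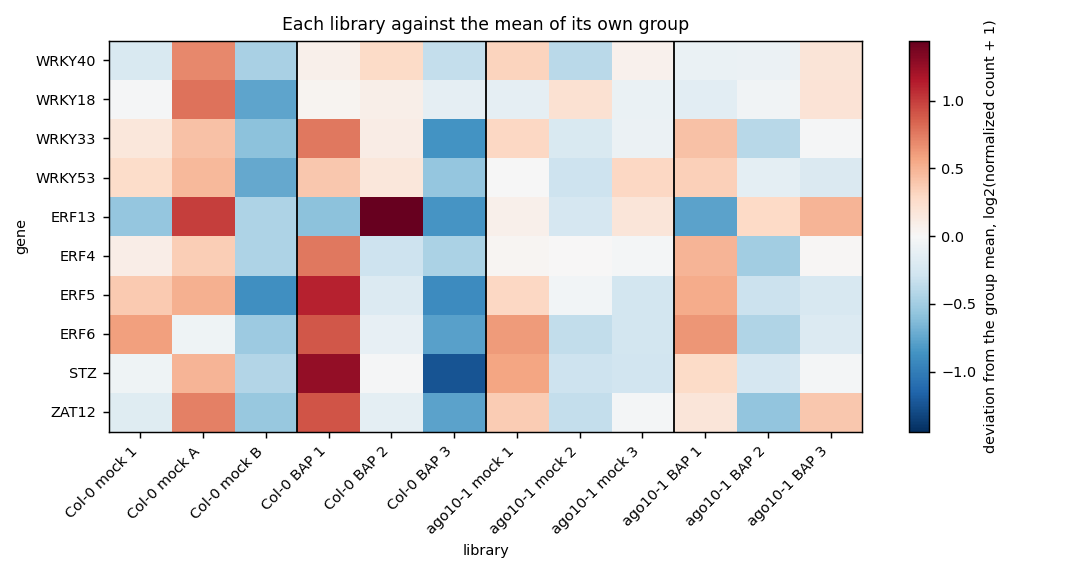
Deviation of each library from the mean of its own group (colour, log2 of the normalized count plus 1) for the 10 genes in the 12 libraries, with black lines between the groups. Library A is red in 9 of the 10 rows and library B is blue in all of them, and Col-0 BAP replicate 3 is blue in all 10.

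Within the 10 genes the levels followed each other to different degrees over the 12 libraries. The median Pearson correlation of the 45 pairs was 0.62 on the log2 scale, and the highest was 0.92, between WRKY33 and ERF6. WRKY40 and ERF13 were correlated at 0.91 with each other, while ERF13 was at -0.07 with ERF4 and at 0.03 with ZAT12. After the group means were subtracted the median over the pairs was 0.69. These are descriptions over libraries that share groups, size factors and replicate numbers.

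Outside the 10 genes, the 5 genes most like their mean pattern over the 12 libraries, among 16828 whose mean reached 50 normalized counts, were SZF1 (AT3G55980, Pearson r = 0.98), JAZ6 (AT1G72450, 0.95), AR781 (AT2G26530, 0.95), AT1G23710 (0.95) and AT2G42760 (0.95). SZF1 encodes a salt-inducible CCCH zinc finger protein. Correlations over 0.9 were reached by 0.0654% of the genes ranked. The median absolute correlation of the genes ranked with this mean pattern was 0.48, so moderate correlations over these libraries were common.

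Relatives of the 10 genes were counted beside them. Of 18 other WRKY genes, 15 were tested and none was called with limma at an unadjusted p of 0.01 in any of the 5 comparisons. In ago10-1 against Col-0 in mock all 15 had positive fitted values (median log2 fold change 0.40), beside 51.4% of all genes tested. The smallest was 6.7e-05, for WRKY29, whose mean was 69.4 normalized counts in ago10-1 mock and 73.7 in Col-0 mock. Of 17 other ERF genes 9 were tested and of 9 other C2H2 zinc finger genes 8, and none of either was called. Their medians in ago10-1 against Col-0 in mock were 0.07 and 0.48. The 8 touch and calmodulin-like genes also held no call and had a median of 0.23 in that comparison. In ago10-1 mock replicates 1 to 3, TCH4 stood at 406, 33.2 and 51.7 normalized counts and TCH3 at 307, 111 and 62.0. CML37 was also highest in replicate 1 of that group, while CAM2, TCH2, CML23 and AT1G76640 were lowest there and CML38 lay between. The part of touch in these values was not tested. None of the root tip, root hair or green shoot markers was called in any of the 5.

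The list of kinases and their partners and that of the jasmonate repressors held the remaining calls. Of 8 kinases and partners, none was called in mock. AP2C1 (AT2G30020), a phosphatase that inactivates stress MAP kinases, fell with BAP in ago10-1 from 629.6 ± 57.8 to 448 ± 20.9 normalized counts (SD, n = 3 each). Its adjusted p was 0.908 from limma. Of 11 JAZ genes, which encode repressors of jasmonate responses induced by wounding, 9 were tested and 5 were called higher in ago10-1 mock. At this threshold 0.437% of all genes tested were called in that comparison. JAZ2, JAZ9, JAZ1 and JAZ7 had the smallest p, with log2 fold changes of 1.09, 1.39, 1.11 and 3.09, and JAZ6 was the other. The adjusted p from limma was 0.299 for JAZ2 and 0.999 for JAZ1, JAZ6, JAZ7 and JAZ9. JAZ7 was at 0, 5.22 and 1.47 normalized counts in Col-0 mock replicate 1, library A and library B. It was at 46.5, 12.6 and 13.8 in ago10-1 mock replicates 1 to 3. JAZ2 was the only one of the 9 called with BAP in ago10-1 (log2 fold change -0.76, adjusted p = 0.908 from limma). There 0.568% of all genes tested were called.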

How the data were processed

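RNA of root tips (Col-0 and ago10-1, mock or BAP, 3 libraries each) was sequenced by the authors. Reads were aligned with STAR, tallied with featureCounts (TAIR10 annotation), then normalized with DESeq2. Versions and strandedness are not given in the sources used here. The signal deposited by the authors is the normalized count, reads per gene divided by the size factor of the library. Multiplying by 1 size factor per library gave whole reads for every value (100%, tolerance 1e-06), which served for edgeR, DESeq2 and the depth.

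Each comparison was fitted with limma 3.58.1 (limma-trend, two-sided, R 4.3.3) on log2(normalized count + 1) in the 6 libraries concerned (12 for the interaction), using 19206 genes whose mean reached 10. Genes with an unadjusted p under 0.01 were called, with Benjamini-Hochberg adjusted p beside it. Fold changes are on the log2(value + 1) scale and understate changes of low genes. edgeR 4.0.16 and DESeq2 1.42.0 were alternatives, as were pseudocounts of 0.5 and 8, other filters, blocks and leaving out libraries. The fit was tested on simulated data. The genes and lists were chosen with earlier results of these data known. Named genes are the 10 members, AGO10, up to 4 called genes per further list and the 5 genes most like the members.

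Libraries of the same number deviated together from their group means. The correlation of deviations over 19206 genes was 0.67, 0.41 and 0.43 for replicates 1 to 3 of ago10-1 mock and BAP, and 0.78, 0.45 and 0.29 for Col-0 BAP and ago10-1 BAP, so the number served as a block there in an alternative fit. Libraries of different numbers could do so too, with 0.66 for ago10-1 BAP replicate 2 and Col-0 BAP replicate 3 and 0.32 for ago10-1 BAP replicate 2 and ago10-1 mock replicate 3. For library A and library B no number is known. The labels do not say that replicates came from separate cultures, so p-values measure the spread between these samples. Coordinates are from RefSeq.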

Additional observations from a re-analysis of the deposited data

Results flagged for a closer look

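JAZ2 (AT1G74950) was called in the limma interaction of genotype and BAP at an unadjusted p under 0.01 only. Its value was -1.03 on the log2 scale (standard error 0.25, unadjusted p = 0.0016 and adjusted p = 1.000). At this threshold 0.0208% of all genes tested were called. The ago10-1 mock libraries used here also gave the calls of JAZ2 above, so these results are not independent. JAZ2 stood at 289, 359 and 373 normalized counts in Col-0 mock replicate 1, library A and library B, 497, 419 and 322 in Col-0 BAP, 684, 643 and 849 in ago10-1 mock and 410.2, 433 and 429 in ago10-1 BAP. None of the 10 transcription factor genes passed this test.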

How the results depend on the processing

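Of 815 fits of the 10 genes under an alternative, 729 kept direction and side of the threshold, 16 lost the call, 4 gained one, 66 changed sign without a call on either side and none reversed a call. For BAP in ago10-1, WRKY40 and ERF13 were called under every alternative in which they were tested (16 and 15). With a filter at a mean of 50, ERF13 was not tested and 1 member was called. For ago10-1 against Col-0 in mock, 3 members were called, but none without a filter on low values, 1 with all 12 libraries in 1 fit (WRKY40) and none without all libraries of number 1. The cause was not tested. Leaving out single libraries gave 0 to 5 members in that comparison, 0 to 1 for ago10-1 against Col-0 after BAP, 2 to 2 for BAP in ago10-1, and 0 to 0 for BAP in Col-0 and the interaction. With the replicate number as a block, 2 members were called for BAP in ago10-1 and 0 for ago10-1 against Col-0 after BAP, and this pairing changed no call of a member, while over all genes it raised the calls for BAP in ago10-1 from 109 to 979. No paired analysis was possible for the comparisons with Col-0 mock because 2 of its columns carry no number of their own. With replicate 1 against the others as a block, ERF6 was also called in ago10-1 against Col-0 in mock, giving 4 members. Adjusted p for WRKY40 and ERF13 with BAP in ago10-1 ran from 0.011 to 1.00 and from 0.0023 to 1.00. ERF13, with 2 reads in some Col-0 libraries, is limited by depth.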

Other observations

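The recovered read numbers of 4 of the 10 genes, WRKY18, ERF13, ERF6 and STZ, were even in all 12 libraries. Of the 120 values of the 10 genes, 96 were even, and of all genes tested 14.2% had even read numbers in all 12 libraries, with 67.5% of their values even. In WRKY53, 3 of the 12 values were even. If both mates of a read pair were counted, which was not tested, the reads given for ERF13 and those used by edgeR and DESeq2 stand for fewer fragments.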
